A study of Mus musculus with 6 samples.

Results

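The genes described here bind, make or sense retinoic acid. They are the binding protein genes Crabp1 and Crabp2, the synthesis genes Aldh1a1 and Aldh1a3, and the receptor genes Rara, Rarb, Rarg, Rxra and Rxrg. These 9 genes are covered by 14 of the 45101 probe sets on the array, each of which maps to a single gene in the platform annotation, and they are 9 of the 18193 genes that have such a probe set. The genes were chosen on differences in intensity between the sorts on these same arrays, together with their place in the pathway, so their values are a description, given with standard errors and without p-values. Where a count of them past the threshold is given, it stands beside the share of all genes and supports nothing.

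Neurons were sorted from papain-dissociated retinas of C57BL/6 mice at postnatal day 6 and profiled on 6 Affymetrix arrays in 3 groups, with a pair of arrays to each. The Hb9 group holds cells positive for both GFP and Thy1 and labelled as Hb9 ganglion cells, the Drd4 group holds GFP and Thy1 double-positive cells labelled as Drd4 ganglion cells, and the Thy1 group holds cells taken for Thy1 alone. Per the series text, different litters gave the replicates, and no group carries a deletion or a drug treatment in the labels. Both GFP lines are known to mark types of ON-OFF direction-selective ganglion cells, and the Thy1 sort is a mixture, which also held RNA of microglial and pericyte markers, so a level in it is an average over that mixture. The Hb9 and Drd4 sorts held RNA of such markers too, at lower summed intensity, so their levels are not those of ganglion cells alone. In bulk samples of this kind, fewer cells of a type and less RNA per cell cannot be told apart.

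Retinoic acid is made from vitamin A. Retinol is oxidised to retinaldehyde, which retinaldehyde dehydrogenases of the Aldh1a family turn into retinoic acid. In the developing mouse retina Aldh1a1 is known for its dorsal and Aldh1a3 for its ventral expression. Inside the cell, Crabp1 is known to hold retinoic acid in the cytosol and to help its breakdown, while Crabp2 carries it to the nucleus. There, retinoic acid receptors (the Rar genes) bind DNA as partners of retinoid X receptors (the Rxr genes), and Cyp26 enzymes degrade the acid.

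The start regions of 3 of the genes are shown. Crabp1 and Aldh1a1 had their highest group mean in Hb9, which for Aldh1a1 rests on 1 array, and Rarb is a classic target of its own ligand. Each window runs from 250 bases before to 50 bases after a RefSeq start site in GRCm38.p6, 5′ to 3′ on the strand of the gene. Capitals mark the core letters of retinoic acid response elements (the core AGGTCA, the related core AGTTCA, the core GGGTCA and the core GGTTCA), searched on both strands with overlaps allowed.
Crabp1, chr9:54764498-54764797, plus strand: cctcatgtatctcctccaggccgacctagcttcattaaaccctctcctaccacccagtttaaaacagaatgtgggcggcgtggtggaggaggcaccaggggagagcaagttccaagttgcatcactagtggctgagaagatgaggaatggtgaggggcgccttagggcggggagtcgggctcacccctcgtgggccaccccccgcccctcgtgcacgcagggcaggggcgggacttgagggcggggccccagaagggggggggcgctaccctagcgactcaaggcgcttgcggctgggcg
Aldh1a1, downstream start, chr19:20601718-20602017, plus strand: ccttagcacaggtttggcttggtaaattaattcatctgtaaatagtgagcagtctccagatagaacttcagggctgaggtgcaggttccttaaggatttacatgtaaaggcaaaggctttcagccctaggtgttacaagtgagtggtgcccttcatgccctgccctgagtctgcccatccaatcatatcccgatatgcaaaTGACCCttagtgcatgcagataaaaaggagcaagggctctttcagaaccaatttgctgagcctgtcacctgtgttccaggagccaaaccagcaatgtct
Rarb, chr14:16575427-16575726, minus strand: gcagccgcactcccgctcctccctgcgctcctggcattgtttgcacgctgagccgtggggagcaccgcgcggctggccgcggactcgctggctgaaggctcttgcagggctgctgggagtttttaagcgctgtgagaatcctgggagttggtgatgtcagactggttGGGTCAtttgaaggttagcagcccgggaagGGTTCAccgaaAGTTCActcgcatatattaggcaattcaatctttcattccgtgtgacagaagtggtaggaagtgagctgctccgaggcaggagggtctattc

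The Rarb window holds 3 cores. A GGTTCA core and, after it, an AGTTCA core lie in the same direction with 5 bases between them, starting at position -53 from the start site, which is the arrangement called DR5. Of all 32851 windows in the RefSeq table, 32 (0.0974%) hold a DR5 of these letters, and of the 14 windows searched, from 7 of the 9 genes, the Rarb window does. Crabp2 and Aldh1a3 have no window in the table and were not searched. A single core is far more common, since 43.7% of all windows hold at least 1. Of the 14 windows, 8 (57.1%) do. The Crabp1 window has none, and the downstream Aldh1a1 window has 1, on the opposite strand. A match of letters describes the window and does not show a bound site.

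The arrays were close to each other in scale, with median intensities of 45.5 to 47.7. The background was read from 27 Bacillus subtilis control probe sets, of which the highest on an array is called the background reference here and ran from 30.8 to 41.6. A group whose mean lies at or below it has only an upper bound. Of 14 measured ganglion cell markers, 13 lay above it in Hb9 (all but Pou4f3), and 14 did in Drd4 and in Thy1. Mnx1, the gene after which the Hb9 line is named, was below it on 6 of 6 arrays, and Drd4 read 46.4 and 46.9 in Hb9, 39.2 and 57.0 in Drd4, and 57.8 and 41.9 in Thy1, so neither transcript marks its own sort here. Differences below are in log2 intensity with standard errors from limma, a linear model fitted across all 18193 genes, and other errors are SD with n = 2 arrays. An exact test of 2 arrays against 2 cannot go below p = 0.333. Intensities are set only against the same probe set on other arrays. The exception is the summed intensities of marker lists, which add different probe sets and mostly follow the brightest of them.

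Crabp2 was higher in Hb9 than in both other sorts. It read 217 and 248 on the Hb9 arrays, 47.2 and 79.6 on the Drd4 arrays and 47.1 and 80.4 on the Thy1 arrays. Both Hb9 arrays lay above all 4 others, while Drd4 and Thy1 overlapped almost completely, each with a low replicate 1 and a higher replicate 2. In log2 units the mean was 7.86 ± 0.13 in Hb9, 5.94 ± 0.53 in Drd4 and 5.94 ± 0.55 in Thy1. Hb9 was 3.77-fold above Thy1 (1.91 ± 0.28) and 3.79-fold above Drd4 (1.92 ± 0.28), and the difference of Drd4 from Thy1 was -0.01 ± 0.28. Over 16 alternative settings the excess of Hb9 over Thy1 stayed between 1.53 and 2.30, and that over Drd4 between 1.54 and 2.30.

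Crabp1, the other cellular binding protein, was also highest in Hb9, with a wider spread. Its probe set read 152 and 66.0 in Hb9, 29.5 and 29.7 in Drd4 and 35.2 and 40.8 in Thy1. The Hb9 arrays stood apart from the rest, but the first of them was far above the second, and in Drd4 the gene was below the background reference on both arrays. In Thy1 it passed the reference on replicate 2 alone, and its mean (5.24 in log2) lay close to the mean reference (5.14). The difference was 1.40 ± 0.30 for Hb9 minus Thy1 (2.65-fold), and against Drd4 the gene was at least 2.98-fold higher in Hb9. Without Hb9 replicate 1 the first difference was 0.80, and without Hb9 replicate 2 it was 2.01. For Drd4 minus Thy1 it was -0.36 ± 0.30, with a Drd4 mean at background.

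Aldh1a1, the retinaldehyde dehydrogenase of dorsal retina, exceeded background on a single array. It read 94.6 and 32.1 in Hb9, 21.1 and 23.6 in Drd4 and 20.9 and 26.6 in Thy1. Both Hb9 values were above all others, yet only replicate 1 passed the background reference of its array. The mean of Hb9 was at least 1.57-fold above Thy1 and at least 1.64-fold above Drd4. That mean rests on Hb9 replicate 1: without it the difference from Thy1 was 0.45, all of it below background, and without replicate 2 it was 2.01.

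Aldh1a3, the ventral counterpart, had 3 probe sets that disagreed. The brightest, 1427395_a_at, was flat, at 49.7 and 50.7 in Hb9, 48.1 and 51.8 in Drd4 and 48.1 and 46.9 in Thy1. The second, 1448789_at, read 51.4 and 57.1 in Hb9, 23.4 and 27.2 in Drd4 and 33.5 and 30.1 in Thy1. Only its Hb9 arrays were above background, and Hb9 was at least 1.54-fold above Thy1 and at least 1.61-fold above Drd4. The third, 1417642_at, stayed below background on all 6 arrays, from 24.8 to 32.5. Which of the probe sets follows the transcript was not tested, so no direction is given for the gene.

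**Figure D1:**
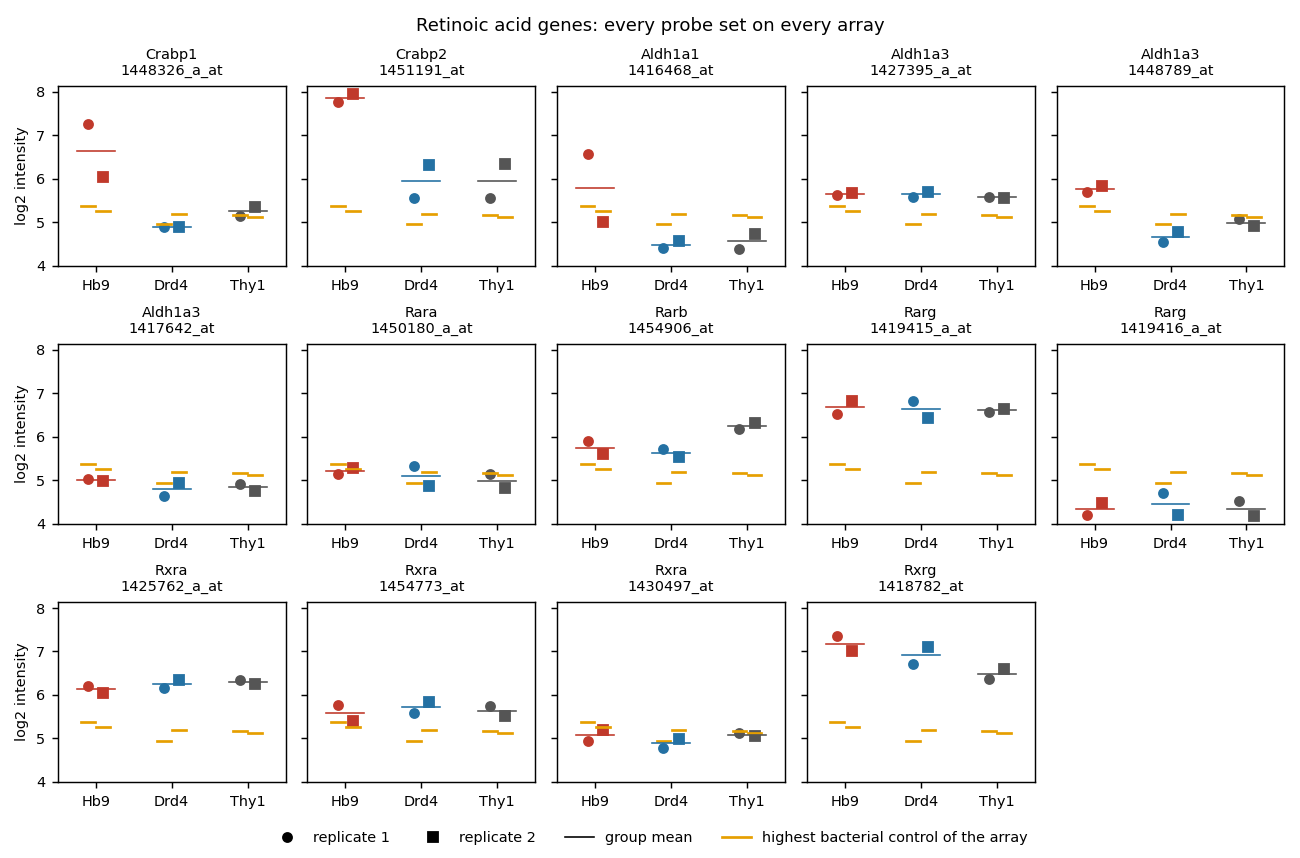
Log2 intensity of each of the 14 probe sets of the 9 genes on the 6 arrays, by sort, with circles for replicate 1, squares for replicate 2, thin lines for group means and orange ticks for the highest bacterial control of each array. Crabp2 and Crabp1 were highest on both Hb9 arrays, Aldh1a1 passed the control on Hb9 replicate 1 alone, and Rarb was highest on both Thy1 arrays.

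Of the receptors, Rarb was lower in both GFP sorts than in Thy1 with no overlap of arrays. Its single probe set read 59.5 and 48.3 in Hb9, 52.9 and 46.5 in Drd4 and 72.6 and 79.9 in Thy1. Both Thy1 arrays lay above the other 4, and the GFP sorts overlapped each other. The difference was -0.51 ± 0.16 for Hb9 minus Thy1 (1.42-fold lower) and -0.62 ± 0.16 for Drd4 minus Thy1 (1.54-fold lower). It kept its sign in 16 of 16 alternatives in both comparisons, from -0.66 to -0.36 in Hb9 and from -0.71 to -0.49 in Drd4.

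Markers of other cells were also higher in the Thy1 sort, beside Rarb. The summed intensity of 14 microglial markers was 1834 to 2286 in Hb9, 1155 to 3284 in Drd4 and 7383 to 12651 in Thy1, and 12 of 14 fell in each GFP sort against Thy1. Still, 11 of 14 were above background in Hb9 and in Drd4, and 13 in Thy1. The sum of 14 pericyte and endothelial markers was 1844 to 2241 in Hb9, 556 to 1421 in Drd4 and 8441 to 9504 in Thy1, and 5 of 14 fell in Hb9 and 6 of 14 in Drd4. The microglial marker Itgam and the endothelial markers Pecam1, Cdh5, Tek and Cldn5 were at background in all 3 groups. Flt1, Esam and Kdr of the same list were above it on 6 of 6 arrays. Flt1 fell against Thy1 in Hb9 (-0.98 ± 0.17, adjusted p = 0.00917 in limma) and in Drd4 (-1.06 ± 0.17, adjusted p = 0.00377 in limma). Esam and Kdr passed in neither. The pericyte marker Rgs5 read 1423 and 1066 in Hb9, 725 and 32.2 in Drd4 and 5374 and 6125 in Thy1. Pdgfrb read 113 and 73.4 in Hb9, 61.1 and 8.79 in Drd4 and 825 and 928 in Thy1. The part of these cells in the Rarb difference was not tested.

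Rxrg, a retinoid X receptor known from cones and ganglion cells, was ordered Hb9, Drd4, Thy1. It read 163 and 129 in Hb9, 105 and 138 in Drd4 and 82.9 and 97.4 in Thy1. The Hb9 and Drd4 arrays overlapped, and both pairs lay above the Thy1 arrays. The difference from Thy1 was 0.69 ± 0.19 in Hb9 (1.61-fold) and 0.42 ± 0.19 in Drd4 (1.34-fold), and that between Hb9 and Drd4 was 0.27 ± 0.19. Of 9 measured cone markers, 4 were at background in Hb9 and 3 in Drd4 and in Thy1, and their summed intensity was 371 to 373 in Hb9, 470 to 498 in Drd4 and 373 to 423 in Thy1. The higher Drd4 sum was carried largely by Cngb3, a cone channel gene, which read 58.2 and 46.6 in Hb9, 121 and 164 in Drd4 and 52.0 and 60.4 in Thy1, and which rose in Drd4 against Thy1 (1.33 ± 0.19, adjusted p = 0.00213 in limma).

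The other receptors differed by little between the sorts. Rarg, by its brighter probe set 1419415_a_at, read 92.6 and 114 in Hb9, 114 and 86.7 in Drd4 and 95.6 and 99.1 in Thy1, with all 3 pairs overlapping. Rxra, by 1425762_a_at, read 73.8 and 66.4 in Hb9, 71.7 and 81.7 in Drd4 and 81.0 and 76.7 in Thy1, and its Hb9 arrays lay just below its Thy1 arrays (-0.17 ± 0.15). A second Rxra probe set, 1454773_at, overlapped in all comparisons. The other probe sets of these genes, Rarg 1419416_a_at and Rxra 1430497_at, were below background on all 6 arrays. Rara was above it on Hb9 replicate 2 and Drd4 replicate 1 alone, with readings of 35.5 and 38.9 in Hb9, 40.2 and 29.2 in Drd4 and 35.3 and 28.2 in Thy1.

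**Figure D2:**
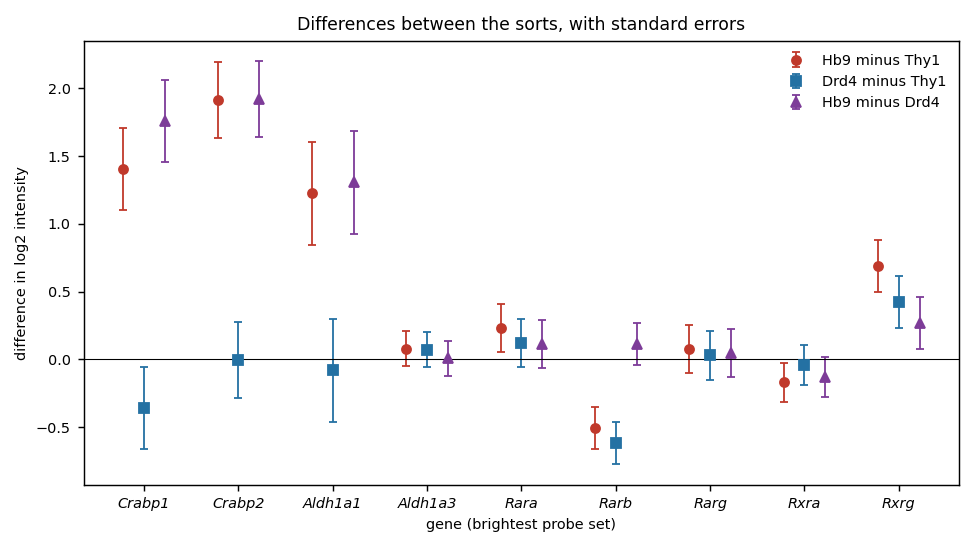
Difference in log2 intensity between the sorts for the brightest probe set of each gene, with bars for the standard error from limma (2 arrays a group). Crabp2 stands at 1.91 and 1.92 in the comparisons of Hb9, while the points of Aldh1a1 in both and of Crabp1 against Drd4 are set against groups at background, for which the text gives bounds. All 9 genes lie between -0.62 and 0.42 in Drd4 minus Thy1.

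Counted over the 9 genes, the arrays of Hb9 and Thy1 did not overlap for 8 genes, where 54.2% of all genes did not overlap either. Those of Drd4 and Thy1 did not overlap for 4 genes (41.1% of all genes), and those of Hb9 and Drd4 for 3 (49.7% of all genes). In the fit across all genes, 2 genes passed an adjusted p of 0.05 in Hb9 against Thy1, namely Crabp1 and Crabp2, beside 6.71% of all genes. Crabp1 was past it in 12 of 16 alternatives and not with robust moderation or without Hb9 replicate 1, Thy1 replicate 1 or Thy1 replicate 2, and Crabp2 was past it in 16. Drd4 against Thy1 had 1, Rarb, beside 5.47% of all genes, and it was past the threshold in 5 of 16 alternatives. Hb9 against Drd4 had 2, again Crabp1 and Crabp2, beside 6.12% of all genes, and both were past it in 16 of 16. Over the 14 probe sets, in a fit of 45037, the call was made for 3 in Hb9 against Thy1 (6.03% of all probe sets), 0 in Drd4 against Thy1 (3.77%) and 3 in Hb9 against Drd4 (6.49%), namely Crabp1, Crabp2 and Aldh1a3 1448789_at both times. For the 0 in Drd4 against Thy1, the gene-level limma fit had 1 member at an unadjusted p under 0.05. Since the genes were chosen with these comparisons known, nothing is read from these counts. The comparisons with Thy1 share the same Thy1 arrays, and the third shares its arrays with both.

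Crabp1, Crabp2 and Aldh1a1 were the members whose group means spanned at least 1 in log2. They had their highest group mean in Hb9, which for Aldh1a1 rests on replicate 1. Rxrg, Rarg, Rara and the brightest Aldh1a3 probe set also had it in Hb9, with spans of 0.08 to 0.69. The genes most like Crabp1, Crabp2 and Aldh1a1 in pattern over the 6 arrays were found by the root mean square difference of log2 intensity. The mean of each gene was removed first. Closest to Crabp1 were Shisa3 (0.21), the transcription factor gene Zic5 (0.22) and Aldh1a1 itself (0.22). Closest to Aldh1a1 were Crabp1 (0.22), the serotonin transporter gene Slc6a4 (0.25) and the claudin gene Cldn11 (0.31). In all of these genes Hb9 replicate 1 was higher than replicate 2: Zic5 read 114 and 57.6 there, Slc6a4 142 and 78.5, and Cldn11 133 and 44.4. Crabp2 was nearest to the proteoglycan gene Vcan (0.28), the contactin gene Cntn5 (0.32) and the amino acid transporter gene Slc7a3 (0.34). Slc7a3 read 179 and 187 in Hb9, 47.1 and 48.4 in Drd4 and 57.4 and 53.9 in Thy1. Many of these distances rest on readings at background: Shisa3 and Aldh1a1 were above the background reference on 1 array each, and Zic5 on the 2 Hb9 arrays alone. Likeness over 6 arrays in 3 groups is a description of pattern only.

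**Figure D3:**
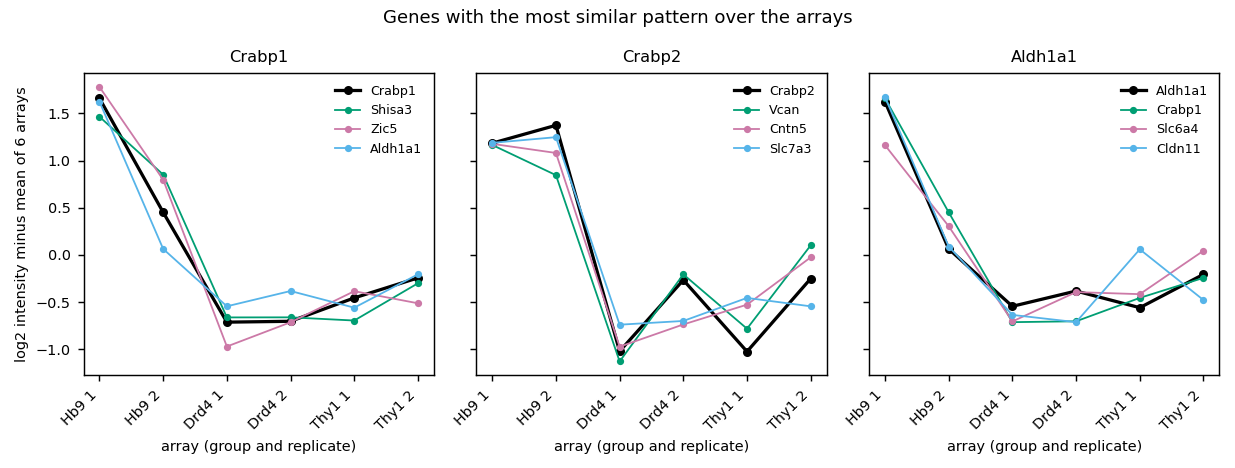
Log2 intensity minus the mean of 6 arrays for Crabp1, Crabp2 and Aldh1a1 (black) and the 3 genes nearest to each (coloured), with the arrays along the axis and lines drawn only to join the points of a gene. Crabp1 and Aldh1a1 fall within the same set, with Hb9 replicate 1 highest, while Crabp2 was high on both Hb9 arrays alike.

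The levels of other cell types in Hb9 stood as follows beside Crabp1, Crabp2 and Aldh1a1. Amacrine markers summed to 1947 to 2197 in Hb9, 2090 to 2347 in Drd4 and 1364 to 1651 in Thy1, with 7 of 11 at background in Hb9, Gad1, Chat and Slc18a3 among them. Among the 4 above it in Hb9 were Gad2 (54.6 and 76.9) and Slc6a9 (146 and 143). Most of the amacrine sum was Pax6, a gene of amacrine and ganglion cells, which read 1746 and 1473 in Hb9, 1548 and 1862 in Drd4 and 832 and 1153 in Thy1. Pax6 rose against Thy1 in Hb9 (0.71 ± 0.18, adjusted p = 0.0409 in limma) and in Drd4 (0.79 ± 0.18, adjusted p = 0.0266 in limma). Markers of Muller glia and progenitors summed to 2084 to 2094 in Hb9, 2387 to 2797 in Drd4 and 3397 to 3532 in Thy1, with Rlbp1, Slc1a3 and Sox9 among the 7 of 13 at background in Hb9. Among the 6 above it in Hb9 were Glul (1128 and 1165), Vim (316 and 338) and Dkk3 (273 and 248). Pigment epithelium markers summed to 698 to 724 in Hb9, 700 to 978 in Drd4 and 755 to 1074 in Thy1, and Rpe65 and Tyr were at background in all 3 groups. The pigment sum was mostly Mitf, at 285 and 304 in Hb9, 561 and 303 in Drd4 and 638 and 326 in Thy1. Tyrp1, a pigment enzyme gene of the same list, was highest on the Hb9 arrays, with 53.7 and 48.5 in Hb9, 42.4 and 37.2 in Drd4 and 34.0 and 42.4 in Thy1, and did not pass against Thy1 (0.43 ± 0.15, adjusted p = 0.133 in limma). The part of such cells in the Hb9 differences was not tested.

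The other genes of the pathway were taken from a list of 74 genes, of which 63 had a probe set of their own. It covers retinoid supply, retinoic acid breakdown, receptor partners and cofactors with other nuclear receptors, and retinoic acid responsive genes. The list was written with earlier results of these data known. Its p-values are from limma, adjusted by Benjamini-Hochberg over all 18193 genes. Hb9 differed from Thy1 in 5 of the 63 (7.94%, beside 6.71% of all genes), with 2 higher and 3 lower. Drd4 differed from Thy1 in 9 (14.3%, beside 5.47%), with 3 higher and 6 lower, and Hb9 from Drd4 in 11 (17.5%, beside 6.12%), with 7 higher and 4 lower. The median difference over the list was 0.01, -0.06 and 0.09 in that order, and over all genes 0.04, 0.02 and 0.04. Without Thy1 replicate 1 the count for Drd4 against Thy1 was 5, and the count for Hb9 against Drd4 was 7 without Hb9 replicate 1 or Drd4 replicate 1 and 5 without Hb9 replicate 2.

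Of 25 measured genes of supply and storage, 1 passed in Hb9 against Thy1 (4%, beside 6.71% of all genes). In Drd4 against Thy1, 3 passed (12%, beside 5.47%), and in Hb9 against Drd4, 5 did (20%, beside 6.12%). The 1 in Hb9 against Thy1 was Dhrs3, a reductase that returns retinaldehyde to retinol. It read 33.5 and 39.0 in Hb9, 44.8 and 38.9 in Drd4 and 90.7 and 68.4 in Thy1. Hb9, at background, was at least 1.96-fold lower than Thy1 (adjusted p = 0.00531 in limma), and Drd4 was lower by 0.92 ± 0.17 (-0.92, adjusted p = 0.0100 in limma), a call lost without Thy1 replicate 1. Dhrs3 is thus another gene that was higher in the Thy1 sort together with the microglial and pericyte markers, whose part was again not tested.

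Between the GFP sorts, enzymes that interconvert retinol and retinaldehyde differed in opposite directions. Rdh10, the main retinol dehydrogenase of the embryo, read 358 and 324 in Hb9, 191 and 223 in Drd4 and 289 and 275 in Thy1. It was higher in Hb9 than in Drd4 by 0.72 ± 0.16 (adjusted p = 0.0244 in limma). Rdh11, a retinaldehyde reductase, read 86.3 and 94.9 in Hb9, 142 and 146 in Drd4 and 74.8 and 96.6 in Thy1. It was higher in Drd4 than in Thy1 by 0.76 ± 0.17 (adjusted p = 0.0241 in limma), and the difference of Hb9 from Drd4 was -0.67 ± 0.17 (adjusted p = 0.0430 in limma). The Rdh10 call was lost when the probe sets of a gene were averaged and without either Hb9 replicate or Drd4 replicate 1. Rdh11 lost both calls when the probe sets of a gene were averaged and without either Drd4 replicate, the first also without Thy1 replicate 1, and the second also with median centring and without either Hb9 replicate.

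Smaller calls were made for 3 further supply genes. Bco2, a carotenoid-cleaving enzyme, read 43.2 and 50.6 in Hb9, 29.9 and 27.1 in Drd4 and 45.4 and 47.1 in Thy1. In Drd4 it was at background and at least 1.38-fold lower than in Thy1 (adjusted p = 0.0140 in limma), a call lost without Drd4 replicate 2 or either Thy1 replicate. In Hb9 it was at least 1.39-fold higher than in Drd4 (adjusted p = 0.0138 in limma), a call lost without Hb9 replicate 2. Rbp7, a retinol binding protein gene, was lower in Hb9 than in Drd4 (-0.56 ± 0.14, adjusted p = 0.0392 in limma), a call lost when any of the 6 arrays was left out. Rlbp1, the retinaldehyde binding protein gene of Muller glia, passed between Hb9 and Drd4 (adjusted p = 0.0344 in limma) with both groups at background, so no fold is given, and it was lost in 7 alternatives, among them without either Hb9 replicate, Drd4 replicate 1 or either Thy1 replicate.

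Several central genes did not differ past the threshold. Aldh1a2, the third retinaldehyde dehydrogenase, was at background in all 3 groups, from 18.4 to 24.4. Stra6, the retinol transporter, read 30.4 to 41.8 over all 6 arrays, with the Hb9 and Thy1 groups at background. Cyp26a1 read 40.0 and 33.6 in Hb9, 39.5 and 33.2 in Drd4 and 38.6 and 37.9 in Thy1. It was at background in Hb9 and above the reference on 1 Drd4 array and 2 Thy1 arrays. For groups at background, the lack of a call does not show equal levels. Cyp26b1 read 56.5 and 50.9 in Hb9, 71.1 and 69.3 in Drd4 and 57.9 and 55.7 in Thy1, and its difference of 0.31 ± 0.14 between Drd4 and Thy1 did not pass (adjusted p = 0.341 in limma). Rxrb, the third retinoid X receptor, overlapped between Hb9 and Thy1, with 110 and 96.0 in Hb9, 101 and 99.1 in Drd4 and 81.5 and 101 in Thy1. Cyp26c1 is not analysed here.

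Of 24 measured receptor partners, cofactors and other nuclear receptors, 3 passed between the GFP sorts (12.5%, beside 6.12% of all genes). A place on this list does not make a gene a partner of retinoic acid receptors. Among the 3 was Rorb, a retinoid-related orphan receptor of retinal neurons. It read 226 and 262 in Hb9, 1234 and 1176 in Drd4 and 513 and 545 in Thy1. The 3 groups were fully separate, with Thy1 between the GFP sorts. Rorb fell in Hb9 (-1.12 ± 0.15, adjusted p = 0.00272 in limma) and rose in Drd4 (1.19 ± 0.15, adjusted p = 0.000944 in limma) against Thy1. The GFP sorts differed by 4.95-fold (-2.31 ± 0.15 as Hb9 minus Drd4, adjusted p = 2.25e-05 in limma). The Hb9 call against Thy1 was lost when the probe sets of a gene were averaged.

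Nuclear receptors of the COUP family can occupy the same DNA elements as retinoic acid receptors. Of its 3 measured genes, Nr2f1 did not pass in any comparison (adjusted p = 0.894 for Hb9 minus Thy1, 0.519 for Drd4 minus Thy1 and 0.498 for Hb9 minus Drd4 in limma). Nr2f2 read 285 and 177 in Hb9, 52.8 and 67.9 in Drd4 and 228 and 240 in Thy1. It was 3.91-fold lower in Drd4 than in Thy1 (-1.97 ± 0.23, adjusted p = 0.000625 in limma) and 3.75-fold higher in Hb9 than in Drd4 (adjusted p = 0.000849 in limma). Nr2f6 read 130 and 151 in Hb9, 62.6 and 69.1 in Drd4 and 69.7 and 68.2 in Thy1. It rose 2.03-fold in Hb9 against Thy1 (1.02 ± 0.15, adjusted p = 0.00434 in limma) and was 2.13-fold above Drd4 (adjusted p = 0.00198 in limma). Nrip1, a corepressor that is itself induced by retinoic acid, read 396 and 520 in Hb9, 400 and 289 in Drd4 and 628 and 564 in Thy1. It fell in Drd4 against Thy1 (-0.81 ± 0.20, adjusted p = 0.0434 in limma), a call lost in 7 of 16 alternatives, among them without Drd4 replicate 2 or either Thy1 replicate.

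**Figure D4:**
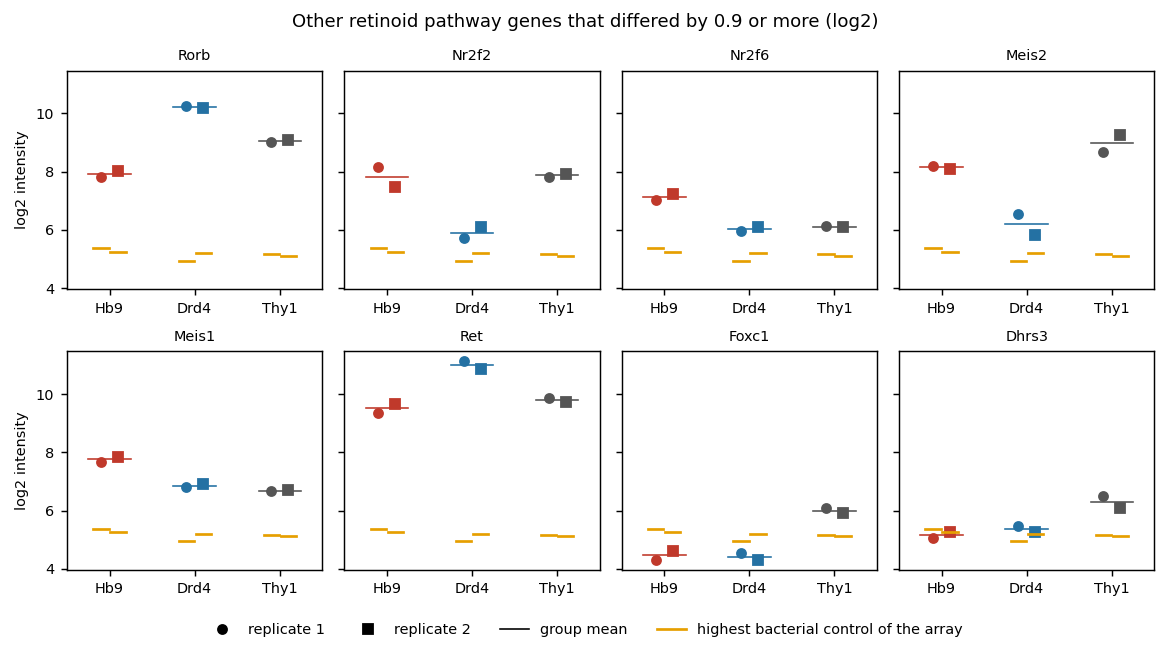
Log2 intensity by array for the 8 other pathway genes that passed in a comparison with a difference of 0.9 or more, with the same symbols as for the retinoic acid genes. Rorb lies highest in Drd4 and lowest in Hb9, Meis2 and Nr2f2 lie lowest in Drd4, Meis1 and Nr2f6 lie highest in Hb9, and Foxc1 and Dhrs3 lie highest in Thy1.

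Of 12 measured genes known to respond to retinoic acid, Meis1 and Meis2, homeobox genes of the same family, behaved differently. Meis1 read 206 and 232 in Hb9, 112 and 121 in Drd4 and 101 and 106 in Thy1. It rose 2.11-fold in Hb9 against Thy1 (1.08 ± 0.15, adjusted p = 0.00370 in limma), and exceeded Drd4 by 0.91 ± 0.15 (adjusted p = 0.00640 in limma). Both Meis1 calls were lost when the probe sets of a gene were averaged, and the second without Hb9 replicate 2. Meis2 read 293 and 274 in Hb9, 94.3 and 56.3 in Drd4 and 414 and 618 in Thy1. It was 6.94-fold lower in Drd4 than in Thy1 (-2.79 ± 0.26, adjusted p = 0.000180 in limma) and 3.89-fold higher in Hb9 than in Drd4 (adjusted p = 0.00161 in limma), and its difference of -0.84 between Hb9 and Thy1 did not pass (adjusted p = 0.0838 in limma). The falls of Meis2, Nr2f2 and Nrip1 in Drd4 against Thy1 ran the same way as the microglial and pericyte markers, among them Pdgfrb (-5.24 ± 0.66) and Csf1r (-2.56 ± 0.41). In Hb9 against Thy1, Pdgfrb (-3.27 ± 0.66) and Csf1r (-2.48 ± 0.41) fell too, beside -0.06 ± 0.23 for Nr2f2 and -0.39 ± 0.20 for Nrip1. Between Hb9 and Drd4, 0 of 14 microglial and 0 of 14 pericyte and endothelial markers passed in limma, with 1 and 3 at an unadjusted p under 0.05. Of the pericyte and endothelial markers, 10 of 14 had a higher mean in Hb9 than in Drd4. Rgs5 (3.01 ± 1.02), Abcc9 (1.71 ± 0.52) and Pdgfrb (at least 1.92-fold) were higher without overlap of arrays, with wide standard errors. Nr2f2 (1.91 ± 0.23) and Meis2 (1.96 ± 0.26) differed in the same direction. The part of these cells was not tested.

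Ret, the receptor of GDNF family ligands, was a Drd4 gene on this list. It read 659 and 820 in Hb9, 2240 and 1866 in Drd4 and 936 and 847 in Thy1. It rose 2.30-fold in Drd4 against Thy1 (1.20 ± 0.16, adjusted p = 0.00132 in limma), and Hb9 was 2.78-fold below Drd4 (adjusted p = 0.000463 in limma). Foxc1, a forkhead gene known from periocular mesenchyme and vessel walls, read 19.9 and 24.6 in Hb9, 23.2 and 19.9 in Drd4 and 67.6 and 60.2 in Thy1. With both GFP sorts at background it was at least 1.60-fold lower in Hb9 (adjusted p = 0.000739 in limma) and at least 1.90-fold lower in Drd4 (adjusted p = 0.000210 in limma) than in Thy1. The pericyte and microglial marker sums given above run the same way, and their part was not tested.

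The synthesis enzymes are known for dorsoventral territories, so 10 measured genes of that axis were set beside them. In Hb9 against Thy1, 0 of 10 passed in limma, beside 6.71% of all genes, with 3 at an unadjusted p under 0.05. The differences of the 10 genes ran from -0.41 to 0.65, with a median of -0.13. Of dorsal genes, Tbx3 stood at -0.41 ± 0.15, Tbx2 at -0.33 ± 0.31, Tbx5 at -0.10 ± 0.13, Efnb1 at 0.12 ± 0.15 and Efnb2 at 0.34 ± 0.18. Of ventral genes, Vax1 stood at -0.17 ± 0.16, Vax2 at 0.47 ± 0.15 and Ephb3 at 0.65 ± 0.20. Bmp4 was at background in Hb9, and Bmpr1b in both groups. The count and median pool both ends of the axis, so they do not describe a shift along it, which was not tested. In Drd4 against Thy1 the dorsal gene Tbx3 was lower (-0.65 ± 0.15, adjusted p = 0.0326 in limma), a call lost when the probe sets of a gene were averaged and without either Drd4 or either Thy1 replicate. Between Hb9 and Drd4, 0 of 10 passed in limma and 0 had an unadjusted p under 0.05.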

How the data were processed

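The authors deposited linear intensities, 1 per probe set and array, from RNA amplified in 2 rounds per the labels' protocols. Which software summarised and normalized them is not given in the sources used for this report. The table lists 45101 probe sets, of which 64 are controls, 34945 map to 1 gene, 932 to several and 9160 to none named, and 34741 matched the mouse RefSeq table by Entrez identifier. Values were taken to log2, and each gene was read from its probe set with the highest mean, which gave 18193 genes. Differences were fitted with limma 3.58.1 in R 4.3.3, with a mean per group, 3 residual degrees of freedom and moderation with an intensity trend (6.98 prior degrees of freedom). Further probe sets of the members come from the same model over 45037 probe sets. The tests were two-sided, with Benjamini-Hochberg adjustment over all genes and a threshold of 0.05. Precision is limited by having 2 arrays a group; a typical (median) standard error was 0.15. On simulated data for Hb9 against Thy1 over 18193 genes, the fit found 5% of changes of 0.5 and 96% of changes of 1 (log2). The changed genes were drawn at random, so these shares describe genes of typical spread. They do not apply to Crabp2, Crabp1 and Aldh1a1, which had larger standard errors (0.28, 0.30 and 0.38). "At least" folds set the brighter mean against the higher, on each array, of the dim value and the highest bacterial control. The members and gene lists were chosen with earlier results of these data known. Named outside the members are list genes past the threshold, 8 central pathway genes and the 3 genes nearest in pattern to each member whose group means span at least 1 on the log2 scale. Nr2f1 and the marker genes given singly were named after their values were seen. Replicate numbers are not stated to pair arrays, so the fit has no block. Alternatives covered scaling, probe set choice, dim genes, moderation, the block and each array left out.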

Additional observations from a re-analysis of the deposited data

How the results depend on the processing

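Each result was recomputed under 16 alternatives. Of 432 member differences, 414 kept their sign, and no named gene past the threshold changed direction. Of 954 results for the named pathway genes, 900 stayed on their side of the threshold, 50 calls were lost and 4 were gained. When each array was left out in turn, the genes called numbered 315 to 1633 in Hb9 against Thy1, 666 to 922 in Drd4 against Thy1 and 411 to 1244 in Hb9 against Drd4. The members called numbered 1 to 3, 0 in each case and 2 to 3 in that order, the pathway genes 5 to 7, 5 to 9 and 5 to 10, and the dorsoventral genes 0 to 1, 0 to 1 and 0. Robust moderation left 1 member in Hb9 against Thy1. In Drd4 against Thy1, 0 members passed in limma with quantile normalization, median centring, all probe sets in the fit or only the compared groups, with 1 to 2 at an unadjusted p under 0.05. The replicate numbers share only a number: the deviations of replicate 1 from its group mean correlated at -0.28 between Hb9 and Drd4, -0.19 between Hb9 and Thy1 and 0.37 between Drd4 and Thy1. With the replicate number as a block, 0 members passed in Drd4 against Thy1 (1 unadjusted), Nrip1 in Drd4 against Thy1 and Rbp7 in Hb9 against Drd4 were lost, and 1156, 985 and 1030 genes passed in the 3 comparisons. Fitting only the compared groups called 1 dorsoventral gene in Hb9 against Thy1, and the mean of all probe sets called 0 in Drd4 against Thy1 (2 unadjusted). Against the median bacterial control, 27 of 27 group means of the members lay above background, where 22 did against the highest. The cause of these changes was not tested. Members near the bacterial controls, Rara and most readings of Aldh1a1 among them, are limited by signal over background.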
